A study of Mus musculus with 19 samples.

Results

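The livers of 4 mice that lack Myd88 and carry Ager (Myd88_null) were compared with those of 5 wild-type mice (WT), across all genes measured. These 9 samples are part of a series of 19 and were chosen by the genotype in the sample titles. The series adds 6 mice without Ager (Ager_null) and 4 without both genes (Ager_Myd88_null), which enter here mainly as a second pair that differs in Myd88. All 19 mice were male C57BL/6 animals of 10 to 12 weeks. Each had undergone an 85% resection of the liver 2 h before death, so no group shows the uninjured organ. The mice were kept on a light-dark cycle with free access to chow and water. The labels do not say how the null alleles were made, in which cells they act or how far they were crossed to the strain. Each sample is 1 array, and the labels speak of RNA per mouse, so arrays were taken as separate animals.

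MyD88 is the adaptor that most Toll-like receptors and the receptors of the interleukin-1 family recruit when they bind a ligand. It gathers the IRAK kinases and TRAF6, which leads to the release of NF-kB into the nucleus and to the transcription of cytokine and chemokine genes. In the resected liver, Kupffer cells, the resident macrophages, respond through this route with TNF and interleukin-6, and hepatocytes leave their resting state in what is called the priming phase. The comparison asks which transcripts of the remnant differ in that early phase when the adaptor is absent.

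Levels are the deposited log2 values, so a difference of 1 is a factor of 2. A gene was tested if its level was over log2 4 on at least 4 of the 19 arrays, and 8515 genes passed. The array of Myd88_null 4 stood apart: its median correlation with the other arrays was 0.965, against 0.979 to 0.987 for the rest of the series. On that array 1212 genes lay more than 1 (log2) from the WT mean, against 113, 221 and 311 on the other Myd88_null arrays, so counts of calls and list medians are also given without it, as are the differences of single genes that it moved by over 1.5 times. The tissue label says liver, but the extraction protocol names glomeruli. All 7 hepatocyte markers measured exceeded log2 4 on every array of both groups, and 6 of 7 kidney and glomerulus markers, among them Nphs1, Wt1 and Umod, were over log2 4 on none.

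Myd88 itself was lower in every Myd88_null liver. Its level was 5.92, 5.24, 5.72, 5.63 and 5.26 in WT and 3.70, 3.85, 3.11 and 3.31 in Myd88_null. The groups did not overlap, and the difference of -2.06 ± 0.25 (log2, SE of the limma fit, n = 5 and 4) had an adjusted p of 0.000294. An exact two-sided permutation test over the 9 samples gave p = 0.0159, the smallest that 5 against 4 can give. The single Myd88 probe set still read over 3 in the null livers, below the filter, and with values under log2 4 set to 4 the difference was -1.55. Ager, which both groups carry, read 2.9 to 3.49 in WT and 3.18 to 3.43 in Myd88_null, also below the filter, so the array says nothing about it.

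Loss of Myd88 was accompanied by few changes that passed the test. Of the 8515 genes, 34 were called at an adjusted p under 0.05 (0.399%), 27 of them higher (0.317%) and 7 lower (0.0822%) in Myd88_null. Without Myd88_null 4, 10 genes were called (0.117%), 5 higher (0.0587%) and 5 lower (0.0587%), and all 10 were among the 34. The groups did not overlap for 29 of the 34, and for 385 of all tested genes (4.52%). The 10 were 2010315B03Rik, Limd1, Lars2, Myd88 and Cd207, which were lower, and Itga9, Postn, Igha, Zfp979 and Jup, which were higher. In whole liver tissue, fewer cells of a type and less RNA per cell cannot be told apart.

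The count depended on single arrays. It was 10 without Myd88_null 4, 11 without Myd88_null 2, 18 without Myd88_null 3 and 987 without Myd88_null 1. Among the WT arrays it was 18 without WT 2, 66 without WT 3, 15 without WT 4 and 18 without WT 5, and 33 without WT 1. Of the 10 genes named above, all except Jup were called in each of these 9 fits. All 34 genes kept their direction in each fit, but these arrays had chosen them by this difference, so that is a description. Among the 27 higher genes, Myd88_null 1 was the lowest of the 4 null livers in 22 and Myd88_null 4 the highest in 19. Their median difference was 0.91, and 0.85 without Myd88_null 4. In Ager_null, which carries Myd88, 26 of these 27 genes also had a mean above WT, with Zfp979 the exception. The genes had been chosen for low levels on these same WT arrays, so that count is a description. The median over all tested genes was 0.06, and -0.05 after each array was centred on its median. With that centring 5 genes were called higher and 7 lower, and after a further quantile normalization 4 higher and 7 lower.

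**Figure D1:**
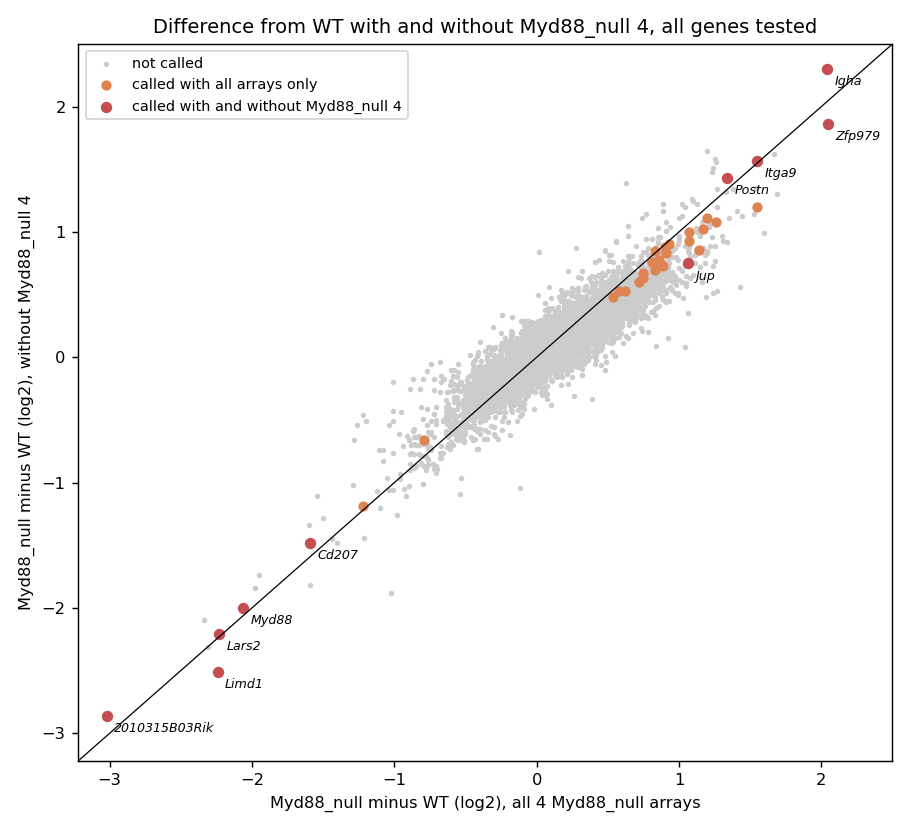
Difference between Myd88_null and WT (log2) for each of 8515 tested genes, with all 4 Myd88_null arrays on the x axis and without Myd88_null 4 on the y axis; the line marks equal values. The 10 genes called both ways (red) include the largest differences on either side, and the genes called only with all arrays (orange) lie near the line, most of them on the higher side of 0.

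Of the 7 genes called lower, the 4 largest falls lay on chromosome 9, Myd88 itself among them. Lars2, which charges mitochondrial tRNA with leucine, read 5.37, 5.24, 5.64, 5.29 and 5.60 in WT and 3.22, 3.23, 3.21 and 3.15 in Myd88_null. It fell by 2.23 ± 0.17 (adjusted p = 5.57e-07), but all null levels lie under log2 4, and with such values set to 4 the difference was -1.43 and still called. No other Lars2 probe set passed the filter, and the mean over all 3 differed by -0.79. Limd1, a LIM domain scaffold protein, read 7.60, 7.54, 7.88, 7.66 and 7.39 in WT and 4.77, 4.93, 5.63 and 6.17 in Myd88_null. Its fall of 2.24 ± 0.27 (adjusted p = 0.000294) became 2.51 without Myd88_null 4, the null liver with the highest Limd1. No other Limd1 probe set passed the filter, and the mean over all of them differed by -1.26. The gene model 2010315B03Rik, singled out after its values were seen because it had the largest difference of all, read 7.67 to 8.16 in WT and 4.33 to 5.33 in Myd88_null (-3.02 ± 0.26, adjusted p = 3.37e-06).

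In the gene order of the mouse assembly GRCm38.p6, these 3 genes are the tested genes 28, 29 and 33 places beyond Myd88. Of 85 tested genes around Myd88 (50 before it and 35 after it, up to the end of the chromosome), 6 were called, or 7.06%, against 0.399% of all genes. The other 3 rose: Itga9 at 4 places before Myd88, Oxsr1 as the tested gene next to it and Fyco1 at 32 places beyond it. Without Myd88_null 4, the calls at Lars2, Limd1, 2010315B03Rik and Itga9 held, so 4 of the 85 were called. The rest of the window ran between falls and rises that did not pass. In this order Oxsr1 is next to Myd88, Lars2 next to Limd1 and Fyco1 next to 2010315B03Rik. Uncalled genes lie between these pairs and on both sides of Itga9. Chromosome 9 held 2 more called genes, Kank2 and C2cd2l, both far from Myd88. The other 25 called genes lay on other chromosomes. Whether DNA carried along with the null allele differs between the groups was not tested.

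**Figure D2:**
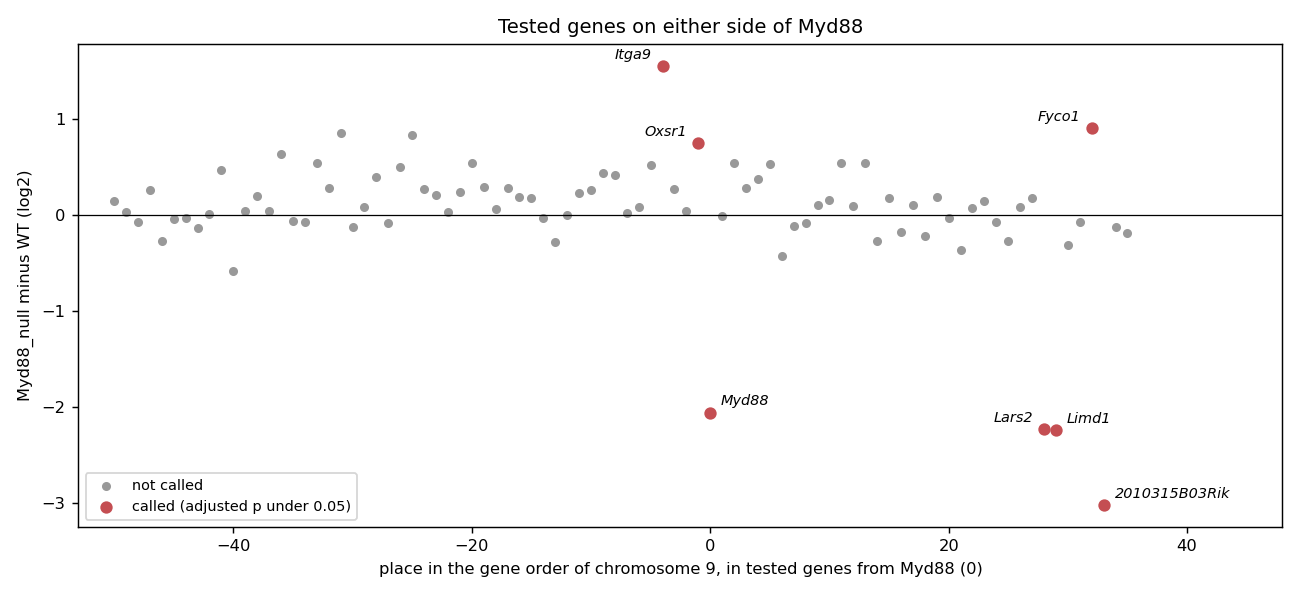
Difference between Myd88_null and WT (log2) for 86 tested genes of chromosome 9, placed by their order around Myd88 (0 on the x axis). The 7 called genes (red), Myd88 included, are both higher and lower than 0. Oxsr1 and Myd88, Lars2 and Limd1, and Fyco1 and 2010315B03Rik are adjacent pairs. Genes that were not called (grey) lie between these pairs and beside Itga9.

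Away from chromosome 9, 3 genes fell. Cd207, which encodes langerin, a lectin of Langerhans cells and some other dendritic cells, read 4.43, 4.48, 4.19, 4.75 and 4.19 in WT and 3.01, 2.71, 3.06 and 2.47 in Myd88_null (-1.59 ± 0.24, adjusted p = 0.00355). The groups did not overlap, but the null levels lie under log2 4, and with all such values set to 4 the difference was lost as a call. The 5 other dendritic cell markers on the array, Itgax, Flt3, Xcr1, Cd209a and Siglech, were over log2 4 on no array of either group. Setdb2, a methyltransferase for lysine 9 of histone H3, read 9.75, 9.73, 9.50, 9.21 and 10.19 in WT and 8.33, 8.37, 8.74 and 8.38 in Myd88_null. Nip7, which takes part in the assembly of the large ribosomal subunit, was between 9.13 and 9.47 in WT and between 8.13 and 8.94 in Myd88_null. Setdb2 (-1.22 ± 0.23, adjusted p = 0.0244) and Nip7 (-0.79 ± 0.16, adjusted p = 0.0318) did not overlap between groups. Without Myd88_null 4 their adjusted p-values were 0.104 and 0.125, and a second usable Nip7 probe set was at 0.18.

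Genes of the cell surface, the matrix and cell contacts were among the rises that held without Myd88_null 4. Itga9, the alpha-9 integrin subunit that binds tenascin and osteopontin, read 3.12, 2.83, 3.28, 2.95 and 2.95 in WT and 4.82, 4.41, 4.57 and 4.49 in Myd88_null. All WT levels were under log2 4, and the rise of 1.55 ± 0.16 (adjusted p = 2.63e-05) lost its call with values under 4 set to 4. No other Itga9 probe set passed the filter, and the mean over all 3 differed by 0.59. Postn, the matrix protein periostin, read 6.81, 6.69, 7.28, 7.31 and 6.95 in WT and 7.93, 8.35, 9.04 and 8.08 in Myd88_null. It rose by 1.34 ± 0.21 (adjusted p = 0.00382), and by 1.43 without Myd88_null 4. Jup, the plakoglobin of desmosomes and adherens junctions, read 5.47, 5.41, 5.34, 5.02 and 5.67 in WT and 6.08, 6.24, 6.07 and 7.36 in Myd88_null. Here Myd88_null 4 alone sat above 7, and the difference of 1.06 ± 0.21 (adjusted p = 0.0297) became 0.75 without it (adjusted p = 0.0258). In the list of matrix, integrin and junction genes, 17 of 19 tested members (28 on the array) were above WT, against 59.2% of all genes, with a median of 0.33, and 0.24 without Myd88_null 4. That list was drawn up with these 3 calls already known. Timp3, an inhibitor of matrix metalloproteinases, was its next member by p (0.57 ± 0.16, adjusted p = 0.0913).

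Igha and Zfp979 had the largest differences among the genes called higher. Igha, the constant region of the immunoglobulin A heavy chain, read 3.89, 3.60, 4.06, 3.97 and 4.22 in WT and 5.11, 6.71, 6.94 and 5.18 in Myd88_null. The null livers fell into a higher and a lower pair, both above WT, and the difference was 2.04 ± 0.31 (adjusted p = 0.00368), or 2.30 without Myd88_null 4. Both other usable Igha probe sets were also higher, by 1.49 and 0.98. Mean Igha was 3.95 in WT, 5.98 in Myd88_null and 5.30 in Ager_null, so livers that carry Myd88 were also above WT. Jchain, the joining chain of polymeric immunoglobulin, read 3.29 to 3.71 in WT and 3.27 to 4.52 in Myd88_null and did not pass (0.43 ± 0.22, adjusted p = 0.286, and 0.66 without Myd88_null 4), and Cd79a, Cd79b, Ms4a1 and Mzb1 were over log2 4 on no array. Zfp979, a zinc finger protein gene, read 2.78, 3.63, 4.06, 3.14 and 3.52 in WT and 5.54, 5.30, 5.02 and 6.05 in Myd88_null (2.05 ± 0.29, adjusted p = 0.00172). Every Zfp979 level in WT except that of WT 3 was under log2 4, and with such values set to 4 the differences of Zfp979 and Igha were 1.47 and 1.93, both called.

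**Figure D3:**
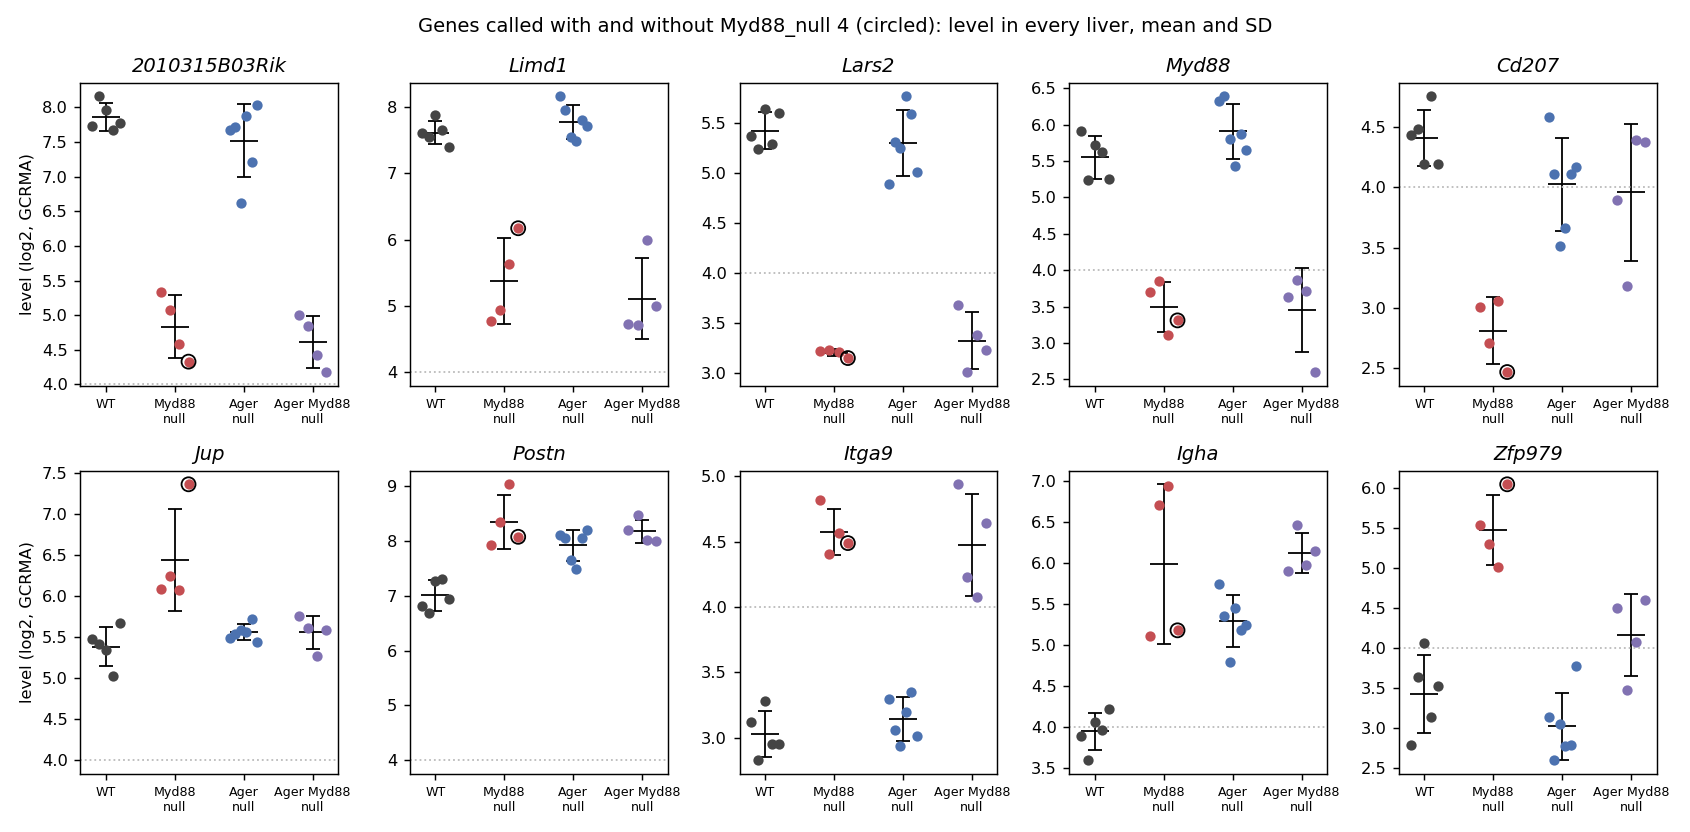
Level (log2) of the 10 genes called with and without Myd88_null 4, in every liver of the 4 groups, with the group mean and SD (bars); the dotted line is log2 4 and the circle marks Myd88_null 4. In each panel all Myd88_null points lie on 1 side of all WT points, and Lars2, Myd88 and Cd207 end under log2 4 in Myd88_null.

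The other 22 rises were called only with Myd88_null 4 included, and without it their adjusted p-values ran from 0.0705 (Kank2) to 0.149 (Numb and C2cd2l). Il6ra, the receptor through which hepatocytes sense interleukin-6, was the largest of them. It read 4.85, 4.36, 4.44, 4.77 and 4.47 in WT and 5.42, 6.35, 5.56 and 7.17 in Myd88_null (1.55 ± 0.32, adjusted p = 0.0353), with the difference at 1.20 without Myd88_null 4. Rnf31, the catalytic subunit of the linear ubiquitin ligase that acts between TNF, Toll-like and interleukin-1 receptors and NF-kB, read 4.19, 4.40, 3.92, 4.42 and 4.06 in WT and 4.68, 4.83, 4.68 and 4.93 in Myd88_null (0.58 ± 0.11, adjusted p = 0.0243). Neither gene overlapped between the groups.

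The remaining higher genes are described one by one, since they belong to no list tested or counted here. Crim1, a membrane protein that binds bone morphogenetic proteins, and Myrf, a membrane-bound transcription factor, were higher by 1.26 ± 0.22 and 1.14 ± 0.23. Zeb1, a repressor of epithelial genes, was higher by 0.72 ± 0.14, Mxd4, a partner of MAX that opposes MYC, by 0.81 ± 0.17, and the zinc finger gene Zfp444 by 0.82 ± 0.17. Zfp444 and Ylpm1, both under log2 4 in all WT livers, lost their calls with such values set to 4. Numb, an inhibitor of Notch signalling, overlapped between groups by little: its highest WT liver read 8.44 and its lowest null liver 8.40 (0.75 ± 0.16, adjusted p = 0.045). A second usable probe set of Crim1 was at 0.06 and of Numb at 0.00, and those of Mxd4 were at -0.07 and 0.08, so these 3 calls rest on 1 probe set each.

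Atxn2, an RNA-binding protein, was 1.17 ± 0.24 higher, and its 2 other usable probe sets gave 1.25 and 1.64. Zcchc14 (1.20 ± 0.22) and Polr3a, the catalytic subunit of RNA polymerase III (0.93 ± 0.20), were likewise higher at all their usable probe sets. Numa1, which organizes spindle poles, was higher by 0.83 ± 0.17, with 0.46 at its second probe set. Myo5b, the motor of apical recycling vesicles, rose by 1.07 ± 0.21, C2cd2l, a lipid carrier between the endoplasmic reticulum and the plasma membrane, by 1.07 ± 0.23, and Fyco1, which couples autophagosomes to microtubules, by 0.90 ± 0.17. The rest ran from Rexo1 (0.54 ± 0.11) through Ylpm1, the kinase gene Oxsr1, Kank2, Ciz1 and Neurl4 to Tnrc18 (0.91 ± 0.16). Of the 34 called genes, 25 have 1 usable probe set; in 5 of the other 9 every further usable probe set moved the same way at an unadjusted p under 0.05, and in 4 none did.

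The receptors and kinases that act with MyD88 differed little. Of 48 genes in the list of Toll-like and interleukin-1 receptor signalling, 42 were on the array and 24 were tested, 0 were called, and the median difference was 0.08 with all arrays and without Myd88_null 4 (-0.04 after median centring). At an unadjusted p under 0.05 there were 4 of 24, against 19.6% of all genes. Traf6, the ubiquitin ligase next to the IRAK kinases, read 3.21 to 3.82 in WT and 3.74 to 4.88 in Myd88_null (0.73 ± 0.18, adjusted p = 0.0679). Tab3, which ties ubiquitin chains to the kinase TAK1, was at 0.91 ± 0.29 and 0.54 without Myd88_null 4, and Ikbkb, the kinase that marks the NF-kB inhibitor for destruction, at 0.44 ± 0.14. Tlr13, an endosomal sensor of bacterial ribosomal RNA, read 4.20, 4.45, 4.23, 4.48 and 4.08 in WT and 3.99, 4.03, 3.99 and 3.56 in Myd88_null, which did not overlap but did not pass (-0.39 ± 0.15, adjusted p = 0.176). The interleukin-1 receptor gene Il1r1 (0.24 ± 0.24), its accessory chain Il1rap (-0.12 ± 0.09), the adaptor Tirap (0.06 ± 0.41) and the kinases Irak1 (0.15 ± 0.14) and Irak2 (-0.20 ± 0.15) had adjusted p-values between 0.478 and 0.941, and without Myd88_null 4 Tirap, Irak1 and Irak2 were at 0.02, 0.07 and -0.12. Cd14, which hands lipopolysaccharide to the Toll-like receptor complex, ran from 5.03 to 7.51 in WT and from 5.07 to 9.12 in Myd88_null (0.63 ± 0.63, adjusted p = 0.588, and 1.39 without Myd88_null 4).

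Targets of NF-kB lay mostly below WT, with no gene past the test. Of 39 listed genes 38 were on the array and 20 were tested; 0 were called, 14 were below WT (40.8% of all genes were) and 6 were below at an unadjusted p under 0.05 (4.23% of all genes). The median was -0.35, and -0.23 without Myd88_null 4. By liver it was -0.36, -0.03, -0.19 and -0.57 in Myd88_null 1 to 4, against -0.12 to 0.19 in WT, so Myd88_null 2 sat inside the WT range. The chemokine Cxcl1, which draws neutrophils, read 10.86, 9.95, 12.22, 11.73 and 11.58 in WT and 8.92, 9.81, 8.15 and 8.95 in Myd88_null. Every null liver was below every WT liver, yet the spread left the difference of -2.31 ± 0.87 at an adjusted p of 0.168. Ccl2, which draws monocytes, read 4.30, 4.98, 5.07, 5.11 and 5.38 in WT and 3.92, 4.02, 3.76 and 4.00 in Myd88_null (-1.04 ± 0.29, adjusted p = 0.0898). Irf1, a transcription factor of the interferon response, read 5.13, 5.34, 5.21, 5.52 and 5.21 in WT and 4.87, 5.0, 4.70 and 4.85 in Myd88_null (-0.43 ± 0.14, adjusted p = 0.125). Cxcl10, a chemokine for T cells, overlapped between groups, at 5.13 to 7.30 in WT and 4.39 to 5.16 in Myd88_null (-1.44 ± 0.39, adjusted p = 0.087). Without Myd88_null 4 these 4 differences were -2.31, -1.06, -0.42 and -1.45.

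The promoters of Cxcl1, Cxcl10 and Irf1 are shown because these genes had 3 of the 4 smallest p-values of the list and the tables used here hold their promoters; Ccl2 is named only. The sequences are RefSeq promoters of GRCm38.p6, from 250 bases before to 50 after the start, with matches to the NF-kB consensus in capitals. Cxcl1 lies at chr5:90890995-90891294 on the plus strand, Cxcl10 at chr5:92348840-92349139 on the minus strand and Irf1 at chr11:53769764-53770063 on the plus strand.
Cxcl1: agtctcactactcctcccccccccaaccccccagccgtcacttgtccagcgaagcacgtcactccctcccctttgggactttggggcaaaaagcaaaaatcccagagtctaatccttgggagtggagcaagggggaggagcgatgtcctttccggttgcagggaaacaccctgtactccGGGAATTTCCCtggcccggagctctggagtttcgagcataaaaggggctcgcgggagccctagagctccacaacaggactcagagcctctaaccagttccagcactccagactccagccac
Cxcl10: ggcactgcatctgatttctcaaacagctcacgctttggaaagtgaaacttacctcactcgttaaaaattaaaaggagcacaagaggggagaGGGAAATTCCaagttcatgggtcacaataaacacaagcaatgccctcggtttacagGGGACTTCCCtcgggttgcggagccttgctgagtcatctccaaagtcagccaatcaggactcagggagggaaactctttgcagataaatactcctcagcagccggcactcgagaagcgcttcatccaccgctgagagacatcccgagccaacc
Irf1: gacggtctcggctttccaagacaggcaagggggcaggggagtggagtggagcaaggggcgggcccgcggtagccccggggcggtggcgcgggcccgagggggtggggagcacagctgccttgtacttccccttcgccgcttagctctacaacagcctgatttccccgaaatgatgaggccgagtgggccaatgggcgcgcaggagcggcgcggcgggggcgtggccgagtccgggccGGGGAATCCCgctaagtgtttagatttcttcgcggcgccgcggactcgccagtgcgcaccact
The consensus, 10 letters long, was searched on both strands. Cxcl1 holds 2 matches that overlap, 71 and 70 bases before the start, Cxcl10 has 2 apart, 159 and 103 bases before it, and Irf1 has 1, 13 bases before it. Such a match occurs in 4.51% of 32851 promoters of this length and in 8 of the 18 promoters found for 17 of the 20 tested list genes. The list was drawn up from NF-kB targets and cytokines, so its share of matches says nothing about loss of Myd88. A match describes letters and does not show a bound site.

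Responses downstream of interleukin-6 and the immediate early genes leaned the other way or not at all. Among 37 tested genes of interleukin-6 signalling and the acute phase (39 on the array), Il6ra was the single call, and the median was 0.06 (-0.06 after median centring, and 0.08 without Myd88_null 4). Saa3, an acute phase apolipoprotein, read 6.84 to 8.64 in WT and 8.21 to 9.22 in Myd88_null (1.09 ± 0.35, adjusted p = 0.126). Il4ra (0.72 ± 0.21) and the kinase gene Jak1 (0.43 ± 0.15), both of cytokine reception, had adjusted p-values of 0.104 and 0.148. Of 31 tested immediate early and priming genes, which switch on within the first hours after resection, 25 were above WT and 0 were called, with a median of 0.32, and 0.27 without Myd88_null 4. This list was at 0.43 and 0.45 in Myd88_null 2 and 3 but at -0.05 and 0.08 in Myd88_null 1 and 4, inside the WT range of -0.32 to 0.20. Its lowest p-values belonged to the nuclear receptor Nr4a1 (0.94 ± 0.29), the transcription factors Egr1 (1.02 ± 0.33) and Fosl2 (0.56 ± 0.25), and Myc (0.85 ± 0.35), with adjusted p between 0.116 and 0.23. Of 27 tested interferon-stimulated genes 0 were called, with a median of 0.09 (-0.03 after median centring) and 0.23 without Myd88_null 4. Irf8, a transcription factor of the macrophage and dendritic lineages, read 6.07 to 6.84 in WT and 5.19 to 5.88 in Myd88_null (-0.76 ± 0.21, adjusted p = 0.0898).

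Cholesterol synthesis genes lay below WT in almost every case. All 20 members on the array were tested, 19 were below WT (40.8% of all genes were), 6 of them at an unadjusted p under 0.05 (4.23% of all genes), and 0 were called. The median was -0.52, and -0.41 without Myd88_null 4. Myd88_null 1, 3 and 4 had list medians of -0.52, -0.50 and -0.81, under the WT range of -0.29 to 0.20, while Myd88_null 2, at -0.22, was inside it. Idi1, which isomerizes isopentenyl diphosphate, read 13.48, 13.15, 12.96, 12.54 and 12.97 in WT and 12.31, 12.54, 12.12 and 11.81 in Myd88_null (-0.83 ± 0.29, adjusted p = 0.151). Cyp51, the sterol demethylase, read 11.94, 11.83, 11.55, 11.57 and 11.78 in WT and 11.38, 11.38, 11.06 and 10.81 in Myd88_null (-0.58 ± 0.21, adjusted p = 0.156). The groups did not overlap for either gene, though for Idi1 the lowest WT and the highest null liver both round to 12.54. Pmvk (-0.76 ± 0.25) and Mvd (-1.29 ± 0.52), both of the mevalonate steps, overlapped.

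The genes of fatty acid synthesis, glucose production and the clock lay mostly above WT, again with 0 calls among them. In fatty acid and triglyceride synthesis 17 of 20 tested genes were above WT, with a median of 0.24, but 0.14 without Myd88_null 4. By liver the list median was -0.06, 0.31, 0.23 and 0.66 in Myd88_null 1 to 4, against -0.13 to 0.28 in WT. Myd88_null 1 and 3 thus sat inside the WT range. Acly, which makes cytosolic acetyl-CoA (0.53 ± 0.17), Acaca (0.77 ± 0.29) and Fasn (0.84 ± 0.33), the carboxylase and the synthase of the pathway, had adjusted p-values of 0.118, 0.168 and 0.189. Acsl3, an acyl-CoA synthetase, went the other way without overlap, at 8.34 to 8.91 in WT and 7.54 to 8.23 in Myd88_null (-0.67 ± 0.22, adjusted p = 0.13). In gluconeogenesis and glycogen metabolism 17 of 19 were above WT and 8 were so at an unadjusted p under 0.05 (15.3% of all genes). Pcx, the pyruvate carboxylase, was at 0.41 ± 0.11 (adjusted p = 0.0768), Foxo1, a transcription factor of fasting, at 0.73 ± 0.24, and the insulin receptor substrate Irs2 at 1.30 ± 0.43. The list's median was 0.25, and 0.18 without Myd88_null 4. By liver it was -0.1, 0.31, 0.28 and 0.47 in Myd88_null 1 to 4, against -0.11 to 0.16 in WT. Here Myd88_null 1 sat inside the WT range. The 21 tested genes of PPAR-alpha and fatty acid oxidation had a median of 0.13, and 0.05 without Myd88_null 4 (0.01 with all arrays after median centring).

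Of 15 tested clock genes 14 were above WT. By liver the median of this list was 0.12, 0.25, 0.54 and 0.85 in Myd88_null 1 to 4, against -0.11 to 0.15 in WT, and over the group it was 0.39, or 0.25 without Myd88_null 4. Hlf, a transcription factor under clock control, read 6.82, 6.95, 6.96, 6.83 and 6.67 in WT and 7.46, 7.68, 7.53 and 8.71 in Myd88_null (1.0 ± 0.27, adjusted p = 0.085). Per1 read 5.99, 5.60, 5.69, 5.90 and 5.81 in WT and 6.02, 6.29, 6.14 and 7.05 in Myd88_null (0.58 ± 0.17, adjusted p = 0.103, and 0.35 without Myd88_null 4). In both genes Myd88_null 4 was the highest liver and no null liver overlapped WT. Bhlhe40, a repressor of the clock, overlapped but came nearest to the threshold (0.85 ± 0.19, adjusted p = 0.0529).

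Ribosome biogenesis genes lay mostly below WT: 25 of 32 tested (40.8% of all genes), with Nip7 the single call and a median of -0.21 (-0.19 without Myd88_null 4). At an unadjusted p under 0.05, 9 were below WT (4.23% of all genes) and 2 above (15.3%). By liver the list median was -0.35, -0.17, -0.06 and -0.17 in Myd88_null 1 to 4, against -0.16 to 0.14 in WT. Myd88_null 3 thus sat inside the WT range, with Myd88_null 2 and 4 just under it. Nop58, of the small nucleolar particles, was at -0.93 ± 0.30 and Nob1, which trims ribosomal RNA, at -0.67 ± 0.21 (adjusted p = 0.127 and 0.115). Utp20, of the small subunit processome, was above WT (0.67 ± 0.23, and 0.43 without Myd88_null 4). Lists with medians near that of all genes, each with 0 calls, were heat shock (17 tested, 0.06), the unfolded protein response (27, -0.02), glucocorticoid-responsive genes (16, 0.08), the cell cycle (12, -0.02) and bile acid metabolism (18, -0.01). Without Myd88_null 4 these medians were 0.01, -0.04, -0.02, 0.03 and -0.06 in the same order. Within them Atf4, the central factor of the integrated stress response, was at -0.78 ± 0.25 (adjusted p = 0.125), and Zbtb16, which responds to glucocorticoids, did not overlap between groups (0.54 ± 0.14, adjusted p = 0.0768). Rrm2, a ribonucleotide reductase subunit needed for DNA replication, read 6.30 to 7.40 in WT and 7.77 to 9.13 in Myd88_null (1.23 ± 0.45, adjusted p = 0.155).

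Kupffer cell markers were low on 1 array. Of 14 Kupffer cell and macrophage markers, all tested, 13 were below WT and 0 were called, with a median of -0.63 that was -0.18 without Myd88_null 4. By liver the medians were -0.10, -0.36, -0.17 and -1.91, against -0.51 to 0.22 in WT, so the other 3 null livers lay inside the WT range. Lyz2, the macrophage lysozyme, read 10.87, 9.81, 9.94 and 7.29 in Myd88_null 1 to 4 and 10.07 to 11.26 in WT. Adgre1, a surface protein of mature macrophages (7.92, 7.30, 7.24 and 5.51, with WT at 7.34 to 8.73), the complement gene C1qa (10.29, 9.72, 9.86 and 7.66, with WT at 9.47 to 10.49) and the complement receptor Vsig4 (10.06, 9.73, 10.01 and 7.38, with WT at 9.82 to 10.41) were also lowest in Myd88_null 4. The differences of these 4 genes from WT were -1.26, -1.04, -0.82 and -0.89 with all arrays and -0.54, -0.54, -0.25 and -0.25 without it. The summed log2 level of the 14 markers ran from 117.2 to 129.2 in WT and from 97.4 to 123.3 in Myd88_null. Of the 14, 11 were over log2 4 on all 19 arrays of the series. The part of these markers in the calls lost without that array was not tested.

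Hepatocyte markers were steady, with a median of -0.01 over 7 genes (-0.05 without Myd88_null 4) and differences from -0.09 to 0.25. Endothelial markers (9 tested, 0.10, and 0.11 without Myd88_null 4) and stellate cell and fibroblast markers (7 tested, 0.09, and 0.28 without Myd88_null 4) turned to -0.01 and -0.03 after median centring, with 0 calls in either. The neutrophil genes S100a8 and S100a9 were lowest in Myd88_null 3, at 8.22 and 7.73, and 6 other neutrophil markers were over log2 4 on no array. T and NK cell markers had 0 of 8 genes over the filter. Of the cholangiocyte and erythroid markers, Sox9 (0.38 ± 0.21, and 0.14 without Myd88_null 4) and Alas2 (0.16 ± 0.14) were the ones tested, and of the kidney markers Podxl, also an endothelial gene (0.41 ± 0.18).

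**Figure D4:**
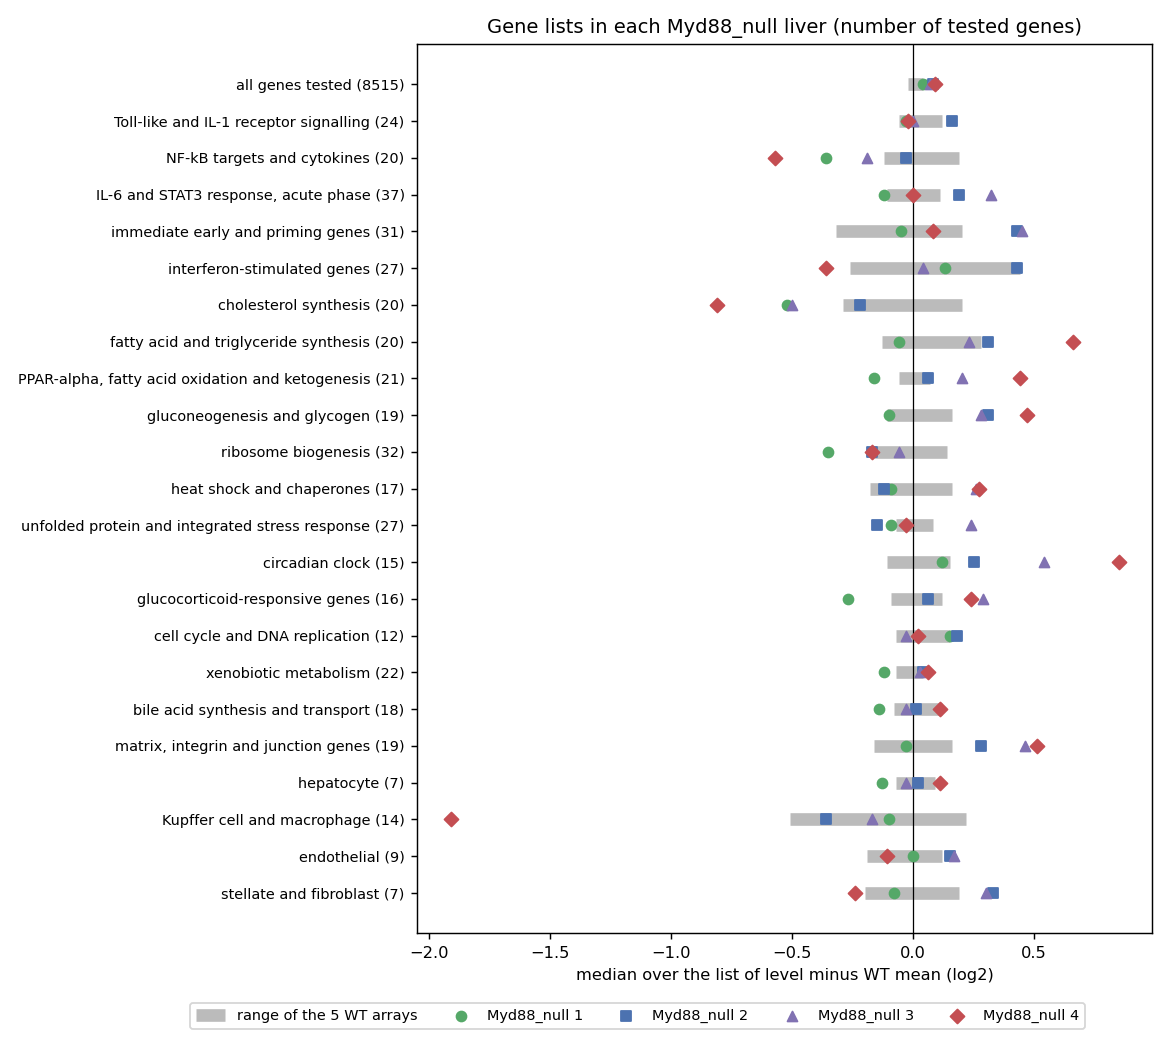
Median over the tested members of each gene list of the level minus the WT mean (log2), for each Myd88_null liver (symbols) and for the range of the 5 WT livers (grey bars); the number of tested genes is in parentheses. Myd88_null 4 lies at -1.91 for Kupffer cell markers and at 0.85 for clock genes, and cholesterol synthesis is at -0.22 to -0.81 in the 4 null livers.

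Loss of Myd88 was also measured in livers without Ager, which share no array with the first comparison. In Ager_Myd88_null against Ager_null 208 genes were called (2.44%), and 6 of the 34 genes were among them. Lars2 (-1.98 ± 0.16), Limd1 (-2.67 ± 0.26), 2010315B03Rik (-2.91 ± 0.25), Myd88 (-2.46 ± 0.24) and Itga9 (1.33 ± 0.15), all of chromosome 9, had the same sign and passed again. Zfp979 was the only gene from another chromosome to do so (1.15 ± 0.28, adjusted p = 0.0452), and it lost that call in a fit with the S range as a block, under median centring, without the filter, and without WT 2 or Myd88_null 2. With values under log2 4 set to 4, both Itga9 and Zfp979 lost it. Of the 34 genes 15 had the same sign in both comparisons, 10 of the 27 higher and 5 of the 7 lower genes. The median of the 27 higher genes was 0.91 in the first comparison and -0.05 in the second.

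Several genes of the first comparison read differently in the second. Cd207 was at -0.06 ± 0.23 and Postn at 0.25 ± 0.20 between Ager_Myd88_null and Ager_null, and Igha at 0.82 ± 0.30 (adjusted p = 0.125). Il6ra was at 0.03 ± 0.31 and Jup at -0.00 ± 0.20. Atxn2 was on the other side of 0, at -0.87 ± 0.23 (adjusted p = 0.0501). The difference between the 2 comparisons, tested as an interaction, was called for 17 of the 34 genes (2.41% of all genes), led by Atxn2 (-2.05, adjusted p = 0.0255) and Crim1 (-1.66, adjusted p = 0.026). The interaction contains the contrast that chose these genes, so the count is a description. At an unadjusted p under 0.05 there were 29 of the 34 (27.2% of all genes). With limma the count of calls was 0 without Myd88_null 3, 0 without Myd88_null 4 and 0 in a fit with the S range as a block, where 29, 28 and 20 of the 34 had an unadjusted p under 0.05. Without Myd88_null 1 or 2 it was 26 or 4, and without WT 2 or WT 5 it was 6 or 7. No S range, a number in the sample descriptions whose meaning is not stated, holds both Ager_null and Ager_Myd88_null, so in the second pair S range and loss of Myd88 cannot be told apart. In the first pair each of the 3 ranges holds both groups. All 34 genes kept their direction in each, though the same arrays had chosen them.

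**Figure D5:**
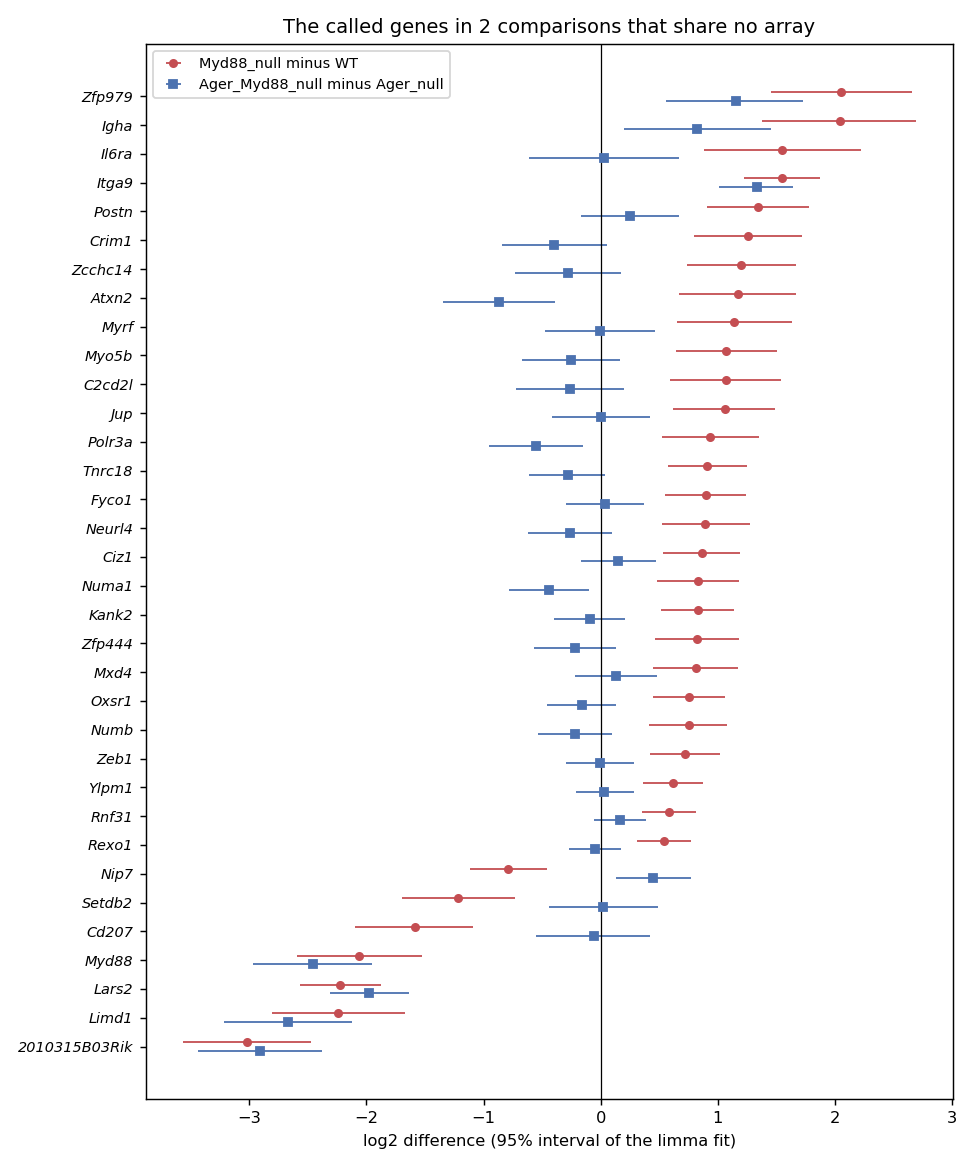
Difference (log2, with the 95% interval of the limma fit) of the 34 called genes in Myd88_null minus WT (red circles) and in Ager_Myd88_null minus Ager_null (blue squares). The blue points of Zfp979, Itga9, Myd88, Lars2, Limd1 and 2010315B03Rik lie on the same side as the red ones and passed the test, while those of the other 28 genes did not.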

How the data were processed

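The deposited values, 1 per probe set of an Affymetrix array, are on the log2 scale. GCRMA 2.16 made them, per the submitters' processing notes, and they were used without further scaling. The kit that copied and labelled the RNA primes from the 3' end, per the labels. Of 45101 probe sets, 64 were controls, 34945 had 1 gene symbol, 932 several and 9160 none. Each of 18193 genes was represented by its probe set with the highest mean, and 8515 passed the filter (log2 4 on 4 arrays); the rest were not tested. limma 3.58.1 in R 4.3.3 (lmFit, eBayes) was fitted to all 19 arrays with 4 groups, so the comparisons share an estimate of the spread. Tests were two-sided, with Benjamini-Hochberg adjustment over all tested genes, and the called threshold was 0.05. On simulated arrays for this comparison, 77% of the genes given a log2 change of 1 were called, and 98% of those given 2. The simulation drew independent normal values, with the same spread per gene in all groups and 200 changed genes. It held no outlying array like Myd88_null 4, so these shares may not hold for the measured arrays. Lists were described by counts and medians, without a test. The comparison, members, lists and settings were chosen with earlier results of these data known.

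Named are Myd88 and Ager, all called genes, up to 4 members of a list by smallest p, members of the Toll-like and interleukin-1 receptor list, cell type markers and the 10 largest uncalled differences without overlap among genes with more than a Riken-type symbol. The number of arrays limits the precision. Alternatives were other scalings, filters, probe set summaries, blocks, array weights and leaving out each array. Python 3.11.15 was used for the summaries.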

Additional observations from a re-analysis of the deposited data

Results flagged for a closer look

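Among 136 groups of samples checked for a sample far from the others, 10 had one, where chance gives about 1 in 20. The groups reuse the same arrays, so their outcomes are not independent. The median correlation of Myd88_null 4 with the other arrays, 0.965, lay far below that of its group. The same liver was far from its group in Jup, at 7.36 (log2), and in the median of the Kupffer cell markers, at -1.91 from the WT mean. Myd88_null 3 was the highest of its group in Setdb2 (8.74) and Myd88_null 1 in Dct (9.33). WT 2 was the lowest of its group in Ylpm1, at 3.48. Among list medians, Myd88_null 2 was high in Toll-like and interleukin-1 receptor signalling (0.16) and WT 2 in interferon-stimulated genes (0.44), and WT 2 (-0.07) and Myd88_null 1 (-0.12) were low in xenobiotic metabolism.

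The 17 called genes whose difference was unlike that in the second pair of groups (interaction, limma) had these log2 interactions, negative where the difference was higher in Myd88_null against WT. Above 0 were Cd207 (1.53), Setdb2 (1.24) and Nip7 (1.24). Below 0 were Rexo1 (-0.59), Oxsr1 (-0.92), Kank2 (-0.92), Numb (-0.97) and Zfp444 (-1.04), then Neurl4 (-1.15), Tnrc18 (-1.19), Numa1 (-1.27), Myo5b (-1.32) and C2cd2l (-1.33). The lowest were Polr3a (-1.48), Zcchc14 (-1.48), Crim1 (-1.66) and Atxn2 (-2.05). None of the 17 was called without Myd88_null 3 or without Myd88_null 4.

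A separate fit took in all 14652 probe sets past the filter, of which 38 were called. Of the 1147 among them without a single gene symbol (none or several), 3 were called, a share near that of all probe sets. The largest, 1456182_x_at, read 2.05 to 2.64 in WT and 8.90, 9.27, 5.14 and 8.59 in Myd88_null, a difference of 5.63 ± 0.63 (log2, limma adjusted p = 0.000172), and 5.57 to 8.40 in Ager_Myd88_null against 2.08 to 2.78 in Ager_null. The probe set 1433438_x_at differed by 3.33 ± 0.43 and 1433685_a_at by 1.26 ± 0.20. Their genes were not identified here.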

How the results depend on the processing

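The 34 genes kept their direction under every setting in which they were tested, and 5 of them (2010315B03Rik, Limd1, Lars2, Myd88 and Zfp979) were called under all. As the same arrays chose the genes, the kept direction is a description. The count was 11 after quantile normalization, 12 with median centring, 7 in a fit on the 9 arrays alone, 86 with the S range as a block and 785 with array weights, where Myd88_null 1 and 4 had weights of 0.489 and 0.318 and Myd88_null 2 had 3.24. Leaving out 1 array at a time gave 10 to 987. The other settings gave 24 to 41. Without Myd88_null 4 the count of 10 became 16 with the S range as a block, 9 with median centring and 11 with quantile normalization, settings added after the data were seen. Of the called genes of the first comparison, 4 to 8 were called in the second pair, and the interaction count of 17 was 11 without the filter, 6 with the replicate block, 0 with the S range as a block and 27 with array weights, and 0 to 26 when 1 array was left out. The causes were not tested.

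Replicate numbers did not clearly pair the samples: the deviations of same-numbered WT and Myd88_null arrays correlated at 0.05, 0.30, 0.09 and 0.21, and 1 of 4 pairs matched best. With the replicate block 24 genes were called, 16 of them among the 34. Of 440 list medians under alternatives 9 moved by more than the spread between replicates and 40 changed sign. Genes near or under log2 4 are limited by background.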

Other observations

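Beyond the called genes, 356 genes did not overlap between Myd88_null and WT but missed the threshold (in all, 385 genes did not overlap, 4.52%). Leaving out 1 gene model known only by a Riken symbol (4931408D14Rik, 1.69 ± 0.47), the 10 largest of these differences include 2 chemokine genes. Cxcl13, which attracts B cells, read 5.57, 6.02, 4.69, 5.42 and 7.30 in WT and 4.44, 3.27, 3.39 and 2.74 in Myd88_null (-2.34 ± 0.53, limma adjusted p = 0.0529, and -2.10 without Myd88_null 4), and Cxcl1 is described above. The class II antigen presentation gene H2-Eb1 read 7.27 to 8.62 in WT and 6.83, 6.45, 6.76 and 4.97 in Myd88_null, a difference of -1.54 that was -1.11 without Myd88_null 4, the liver with low Kupffer cell markers.

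Several of the others are metabolic enzymes and transporters. Cyp2b10, a cytochrome that the receptor CAR induces, read 11.79, 11.06, 12.37, 11.42 and 12.03 in WT and 9.61, 9.89, 10.24 and 10.82 in Myd88_null (-1.59 ± 0.54, adjusted p = 0.139), while the 22 tested genes of xenobiotic metabolism had a median of -0.00, and -0.01 without Myd88_null 4. Slc10a2, the apical bile acid transporter, was at -1.50 ± 0.33 (adjusted p = 0.0512). Dct, an enzyme of melanin synthesis, read 9.86 to 10.51 in WT and 7.80 to 9.33 in Myd88_null (-1.98 ± 0.47). Nipal1 was at -1.40, and Pcdh1, Slc45a3 and Bmyc were at 1.44, 1.38 and 1.33.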
